A study of Rattus norvegicus with 9 samples.

Results

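The 9 transcripts described here come from 3 loci of predicted long non-coding RNA (lncRNA) in rat cerebral cortex, MSTRG.288, MSTRG.17966 and MSTRG.16732. They are all the transcripts of the count table whose identifier begins with the number of one of these loci, 9 of 44059 transcripts, and 9 of 3251 predicted lncRNA, which fall into 2408 loci. MSTRG is the prefix that the assembler StringTie gives to merged transcripts by default, the first number stands for the locus and the last for the transcript. The loci were chosen because the study proposes MSTRG.288.2, MSTRG.288.3 and MSTRG.17966.6 as competing endogenous RNA and followed MSTRG.16732.1 by PCR, having listed it among the lncRNA that were lower after injury and higher with the drug. These 4 transcripts had been selected on their change both from Sham to I/R and from I/R to I/R + DEX, so their values in those 2 comparisons, and those of the other transcripts that share their reads, are given as a description without a test. The other 5 transcripts, MSTRG.288.1, MSTRG.17966.4, MSTRG.17966.7, MSTRG.17966.9 and MSTRG.16732.2, are not named by the study.

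RNA was sequenced from the cortex of 9 male Sprague-Dawley rats of 7 to 8 weeks, 3 in each group. Rats of the I/R group underwent transient middle cerebral artery occlusion (tMCAO), a filament model of stroke in which the artery is blocked for 2 h and then reopened, and received saline. By the methods of the study, rats of the I/R + DEX group underwent the same occlusion 30 min after an intraperitoneal injection of 50 µg/kg dexmedetomidine. The drug is a sedative that activates alpha-2 adrenergic receptors. The abstract of the study also speaks of dosing after reperfusion, which its methods do not describe. Sham rats received saline and surgery without occlusion, and all were sacrificed at 24 h. Animals that showed no deficit, died early or bled were left out by the study, so the rats with occlusion were a selected set. There was no group given dexmedetomidine without occlusion, so an effect of the drug on uninjured cortex cannot be told apart from its effect on injured cortex.

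Library totals ran from 21691473 to 36039743 counts, and the Sham libraries were the shallowest, at 21691473 to 28600541. Predicted lncRNA as a class took 11.6 to 12.7% of all counts in Sham, 5.90 to 7.72% in the I/R group and 4.91 to 7.53% in I/R + DEX, and I/R + DEX replicate 3 was the lowest. The 3 loci took 1.02 to 1.06% of the predicted lncRNA counts in Sham, 1.91 to 2.41% in the I/R group and 1.34 to 1.75% in I/R + DEX. None of the 40808 annotated identifiers could be matched to a gene symbol here, so the markers of cortical cell types were not analysed here. In bulk tissue, fewer cells of a type and less RNA per cell cannot be told apart, which holds for every value below.

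Long non-coding RNAs are transcripts without a recognised protein product, and many act in the nucleus on the transcription of other genes or in the cytoplasm on the stability of other RNAs. A competing endogenous RNA carries binding sites for a microRNA, and by holding that microRNA it can leave less of it to act on messenger RNAs with the same sites. Binding depends mainly on the seed, the bases near the 5′ end of the microRNA. In this model the amount of each transcript matters, because only a transcript that contains the site can compete.

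The study places MSTRG.288.3 in a proposed axis with rno-miR-6333 and MSTRG.17966.6 in one with rno-miR-24-3p. Their mature sequences (RefSeq, GRCr8) are shown because they are the partners in the proposed pairing, with the seed (bases 2 to 8) in capitals.
rno-miR-6333: uAGGCUGGacuugaacagcccgc
rno-miR-24-3p: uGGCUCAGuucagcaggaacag
The mature rno-miR-6333 lies at chr5:153009129-153009151 on the plus strand of GRCr8. The mature rno-miR-24-3p is encoded at chr17:1818672-1818693 and chr19:40859481-40859502, both on the minus strand. None of the other mature rat microRNAs among the 693 in the RefSeq table has either seed. The levels of the microRNAs were not analysed here.

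The PCR primers of the study are shown because they mark the transcript that was followed at each of 2 loci outside sequencing.
MSTRG.288.3 forward: cccacaggccaagggaattt
MSTRG.288.3 reverse: cccgtgaaccctcaacacat
MSTRG.16732.1 forward: caacaatgcccaccaaccag
MSTRG.16732.1 reverse: ccattactgccctccccaag
All 4 primers are 20 bases long, with a GC content of 55 to 60%. The study reports that its PCR of MSTRG.288.3 and MSTRG.16732.1 gave the same outcome as its sequencing. The rats used for PCR were not those sequenced, and the PCR values were not analysed here. Whether a primer also lies in the other transcripts of its locus was not analysed here, since the transcript sequences and their rn6 coordinates were not used here.

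The 4 named transcripts were each at 0 counts in at least 1 library, whereas MSTRG.288.1, MSTRG.17966.4 and MSTRG.16732.2, none of them named, had counts in every library. Of the 81 values of the 9 transcripts, 35 were 0. The counts are whole numbers per transcript without normalisation, and how the reads that several transcripts of a locus have in common were apportioned is not given in the sources used here. A locus here means its predicted lncRNA in the count table. Any other transcript placed at the same locus, such as an annotated one, is outside its sum and its number of transcripts. Transcript lengths were not used here, so a share below is a share of the counts of the locus within one library, not of molecules, and counts are not compared as levels between transcripts or loci.

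At MSTRG.288 the locus as a whole was higher in I/R than in Sham, and the additional counts lay on the 2 transcripts that the study names while the transcript it does not name was lower on average. MSTRG.288.1 had 3393, 3014 and 4272 counts in Sham replicates 1 to 3, 1188, 3036 and 4389 in the I/R group and 5270, 6256 and 4079 in I/R + DEX. MSTRG.288.3 had 9067, 3291 and 2213 counts in I/R replicates 1 to 3 and 0 in the other 6 libraries. Its I/R libraries thus lay above those of both other groups, as did 30.3% of the transcripts tested in I/R against Sham, while 5.01% of those tested in I/R + DEX against I/R were separated with the first named group lower; nothing is read from these shares, since the transcript was selected on them. MSTRG.288.2 had 0, 763 and 1810 counts in the same I/R libraries and 0 in the other 6. In Sham and I/R + DEX, MSTRG.288.1 therefore held all counts of the locus, and a count of 0 there allows a share of MSTRG.288.2 or MSTRG.288.3 of up to 0.0702 to 0.0995% in Sham and 0.0480 to 0.0736% in I/R + DEX. These limits and all intervals of shares below cover counting error only.

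Within the I/R group the 3 rats divided the locus in different proportions. MSTRG.288.3 held 88.4% of the locus counts in I/R replicate 1 (95% Wilson interval 87.8 to 89.0%), 46.4% in replicate 2 (45.3 to 47.6%) and 26.3% in replicate 3 (25.4 to 27.3%). MSTRG.288.1 held 11.6% (11.0 to 12.2%), 42.8% (41.7 to 44.0%) and 52.2% (51.1 to 53.2%). Each transcript thus ranged widely over the 3 rats, and the intervals do not include the unknown apportioning of shared reads. MSTRG.288.2 was not detected in replicate 1, with a limit of 0.0293%, and held 10.8% (10.1 to 11.5%) and 21.5% (20.7 to 22.4%) in replicates 2 and 3. The mean share of MSTRG.288.3 in I/R was 53.7% ± 31.7 (SD, n = 3), and it was 36.4% without replicate 1 and 67.4% without replicate 3. MSTRG.288.3 led the locus in I/R replicates 1 and 2, and MSTRG.288.1 led it in the other 7 libraries.

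The sum of the locus varied far less between the rats of a group. In CPM (counts scaled to library size with TMM factors), it was 122, 136 and 146 in Sham, 274, 216 and 249 in the I/R group and 161, 181 and 140 in I/R + DEX. All 3 I/R libraries lay above all libraries of both other groups. Groups did not overlap, with the first named group higher, for 30.9% of the loci tested in I/R against Sham, and, with the first named group lower, for 5.08% of those in I/R + DEX against I/R. The locus was selected on these contrasts, and nothing is read from these shares. The fitted log2 fold change of the sum was 0.87 (SE 0.13) from Sham to I/R and -0.61 (SE 0.17) from I/R to I/R + DEX.

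The difference of the sum between I/R and Sham, 112 CPM, was made up of 136 CPM more of MSTRG.288.3, 25.6 CPM more of MSTRG.288.2 and 49.7 CPM less of MSTRG.288.1 (-49.7 CPM). From I/R to I/R + DEX the sum was lower, at -85.7 CPM, with MSTRG.288.3 and MSTRG.288.2 gone from the counts and MSTRG.288.1 higher by 75.9 CPM. With 1 rat left out, the part of MSTRG.288.1 ran from -72.3 to -23.2 CPM in the first difference, the latter without I/R replicate 1, and from 49.4 to 98.4 in the second, while that of MSTRG.288.3 in the first ran from 82.9 to 171 CPM. MSTRG.288.1 had 134 ± 11.8 CPM (SD, n = 3) in Sham, 84.7 ± 49.6 in the I/R group and 161 ± 20.4 in I/R + DEX. Its I/R libraries ran from 31.7 to 130 CPM and overlapped those of Sham, which ran from 122 to 146. They lay below all 3 I/R + DEX libraries, a separation with the first named group higher that 4.01% of the transcripts tested in I/R + DEX against I/R show. Nothing is read from this share, since the locus was selected on this contrast and its transcripts divide its reads. MSTRG.288.1 thus differed in the opposite direction to its locus in both comparisons, with a log2 fold change of -0.66 (SE 0.47) from Sham to I/R and of 0.93 (SE 0.48) from I/R to I/R + DEX. A locus sum and a single transcript of this locus give opposite directions for the same 6 libraries.

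**Figure D1:**
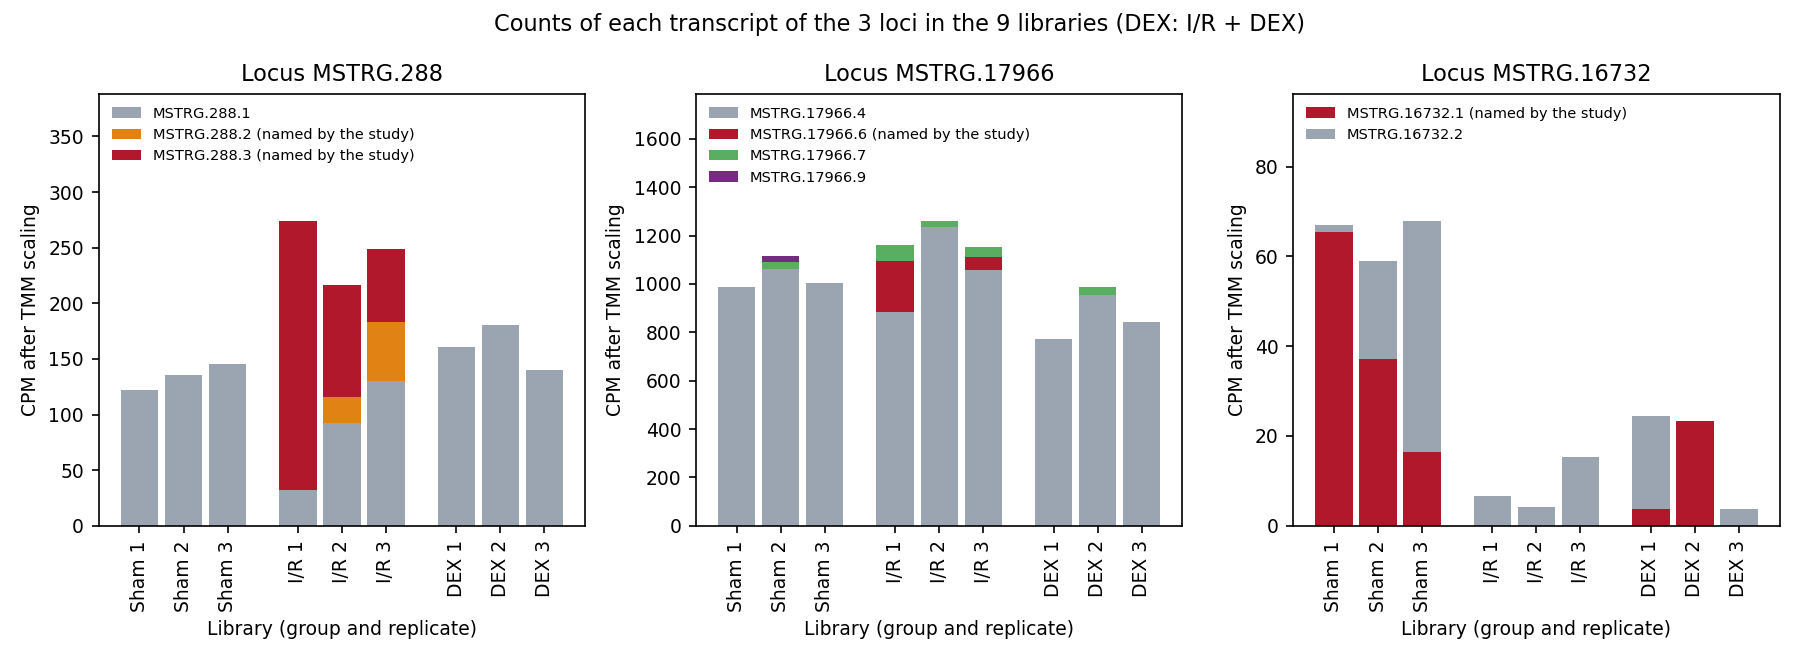
CPM (TMM) of every transcript in each of the 9 libraries, as stacked bars with one panel per locus. The libraries are ordered by the 3 groups along the horizontal axis, and the height of a whole bar is the locus sum. The sum of MSTRG.288 lies between 216 and 274 CPM in I/R and between 122 and 181 in the other groups, while MSTRG.288.3 spreads from 65.5 to 242 CPM within I/R.

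At MSTRG.17966 at least 76.3% of the counts lay in every library on MSTRG.17966.4, a transcript that the study does not name, and the named transcript MSTRG.17966.6 was counted in 2 of the 3 I/R rats. MSTRG.17966.4 had 27434, 23563 and 29486 counts in Sham, 33185, 40450 and 35767 in the I/R group and 25331, 33043 and 24541 in I/R + DEX. MSTRG.17966.6 had 7852, 0 and 1843 counts in I/R, 11 in I/R + DEX replicate 2 and 0 in the other 5 libraries. The transcript proposed as a competing endogenous RNA was thus absent from the counts of I/R replicate 2, whose locus sum of 41274 counts allows a share of up to 0.00727%.

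MSTRG.17966.7, also not named, was the minor transcript with counts in the most libraries. It had 2487, 824 and 1351 counts in I/R, 626 in Sham replicate 2, 1092 in I/R + DEX replicate 2 and 0 in the other 4 libraries. MSTRG.17966.9 had 586 counts in Sham replicate 2 and 0 in the other 8. Sham replicate 2 and I/R + DEX replicate 2 were the libraries of their groups in which other transcripts than MSTRG.17966.4 had counts, and the other 4 libraries of these groups held all their counts on it.

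MSTRG.17966.4 held 76.3%, 98.0% and 91.8% of the locus counts in I/R replicates 1 to 3. Its share was 95.1% in Sham replicate 2 and 96.8% in I/R + DEX replicate 2. It led the locus in all 9 libraries. MSTRG.17966.6 reached 18.0% (95% Wilson interval 17.7 to 18.4%) in I/R replicate 1 and 4.73% (4.52 to 4.95%) in I/R replicate 3, and its mean share in I/R was 2.37% without replicate 1 and 11.4% without replicate 2. MSTRG.17966.7 held 5.71%, 1.996% and 3.47% in I/R, above the 2.53% of Sham replicate 2 in 2 of the 3 rats, and I/R + DEX replicate 2 stood at 3.20%.

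The locus sum was 986, 1116 and 1004 CPM in Sham, 1162, 1259 and 1153 in the I/R group and 772, 988 and 844 in I/R + DEX. The I/R libraries lay above all others, but by less than at MSTRG.288. Such a separation was found for 30.9% of the loci tested in I/R against Sham (higher) and for 5.08% in I/R + DEX against I/R (lower), and nothing is read from it, as this locus too was selected on these contrasts. The fitted log2 fold change was 0.19 (SE 0.11) from Sham to I/R and -0.45 (SE 0.17) from I/R to I/R + DEX. MSTRG.17966.4 itself had a log2 fold change of 0.06 (SE 0.15) and of -0.30 (SE 0.20) in these comparisons, and its I/R libraries overlapped both other groups.

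The 156 CPM by which the sum of MSTRG.17966 was higher in I/R than in Sham were divided, over the means of all rats, into 88.0 CPM on MSTRG.17966.6, 42.0 on MSTRG.17966.4 and 34.4 on MSTRG.17966.7, with MSTRG.17966.9 lower (-8.80 CPM). From I/R to I/R + DEX the sum differed by -323 CPM, of which -202 lay on MSTRG.17966.4, -87.9 on MSTRG.17966.6 and -33.3 on MSTRG.17966.7. How these differences were divided turned on single rats. Without I/R replicate 1 the first difference had 27.3 CPM on MSTRG.17966.6 and 129 on MSTRG.17966.4, and without I/R replicate 2 it had 132 and -45.1 CPM. Without I/R replicate 2 the second difference had -115 CPM on MSTRG.17966.4 and -132 on MSTRG.17966.6, so that the larger portion then lay on the named transcript, whereas without I/R replicate 1 they were -289 and -27.2 CPM. MSTRG.17966.6 had 210, 0 and 54.5 CPM in the I/R rats, a mean of 88.0 ± 109 (SD, n = 3), so its SD exceeded its mean. Its mean in I/R was at least 765-fold higher than a floor of 3 counts in each Sham library, and at least 237-fold without I/R replicate 1.

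At MSTRG.16732 the locus was lower in I/R than in Sham, and the named transcript was at 0 in all 3 I/R rats while MSTRG.16732.2, which is not named, was counted in every library. MSTRG.16732.1 had 1821, 826 and 485 counts in Sham, 0 in each I/R library and 121, 807 and 0 in I/R + DEX. The absence in I/R is a separation, with the first named group lower, that 28.2% of the transcripts tested in I/R against Sham show. Nothing is read from this share, since the transcript was selected on this contrast. MSTRG.16732.2 had 44, 481 and 1506 counts in Sham, 249, 136 and 516 in the I/R group and 681, 3 and 110 in I/R + DEX. In Sham, the rat with the most counts on one transcript had the fewest on the other, and so had I/R + DEX replicate 2.

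The share of MSTRG.16732.1 was 97.6% (95% Wilson interval 96.9 to 98.2%), 63.2% (60.6 to 65.8%) and 24.4% (22.5 to 26.3%) in Sham replicates 1 to 3. In I/R + DEX it was 15.1% (12.8 to 17.7%), 99.6% (98.9 to 99.9%) and 0, the last with a limit of 2.73%. The 3 rats of one group thus spanned most of the range from none to all. In I/R the limits of a share at 0 counts were 1.21, 2.21 and 0.581%, wider than at MSTRG.288 because the locus held 136 to 516 counts. MSTRG.16732.1 led the locus in Sham replicates 1 and 2 and in I/R + DEX replicate 2, and MSTRG.16732.2 led it elsewhere. The mean share of MSTRG.16732.1 in I/R + DEX ran from 7.54 to 57.4% when 1 rat was left out.

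The sum gave closer values within Sham. It was 67.0, 58.9 and 67.8 CPM in Sham, 6.65, 4.15 and 15.3 in the I/R group and 24.5, 23.4 and 3.78 in I/R + DEX. Both groups with occlusion lay below Sham in every library, which 28.2% of the loci tested show when I/R is set against Sham and 23.8% when I/R + DEX is, with the first named group lower. Nothing is read from the share for I/R against Sham, as the locus was selected on that contrast. I/R + DEX replicates 1 and 2 lay above all I/R libraries and replicate 3 lay below them. Replicate 3 was also the library with the lowest share of predicted lncRNA counts, 4.91%, and the part of that in the result was not tested.

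The fitted log2 fold change of the sum of MSTRG.16732 was -2.90 (SE 0.47) in I/R against Sham, 1.00 (SE 0.77) from I/R to I/R + DEX and -1.91 (SE 0.63) from Sham to I/R + DEX. The second value was 1.70 without I/R replicate 3, and between 0.66 and 1.47 without any other single rat. Of the difference between I/R and Sham, -55.9 CPM, MSTRG.16732.1 carried -39.7 and MSTRG.16732.2 carried -16.2. From I/R to I/R + DEX the sum was higher by 8.53 CPM, of which MSTRG.16732.1 carried 9.01 and MSTRG.16732.2 carried -0.48. This division also turned on single rats. Without Sham replicate 1 the first difference had -26.9 CPM on MSTRG.16732.1 and -27.8 on MSTRG.16732.2, and without Sham replicate 3 it had -51.3 and -2.94. Without I/R + DEX replicate 2 the second had 1.84 CPM on MSTRG.16732.1 and 3.58 on MSTRG.16732.2, and the part of MSTRG.16732.2 was also above 0 without I/R + DEX replicate 3 (1.73 CPM) or I/R replicate 3 (2.81 CPM). MSTRG.16732.2 had 24.9 ± 25.01 CPM (SD, n = 3) in Sham, 8.69 ± 5.84 in the I/R group and 8.21 ± 11.0 in I/R + DEX, and its groups overlapped in all 3 comparisons.

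**Figure D2:**
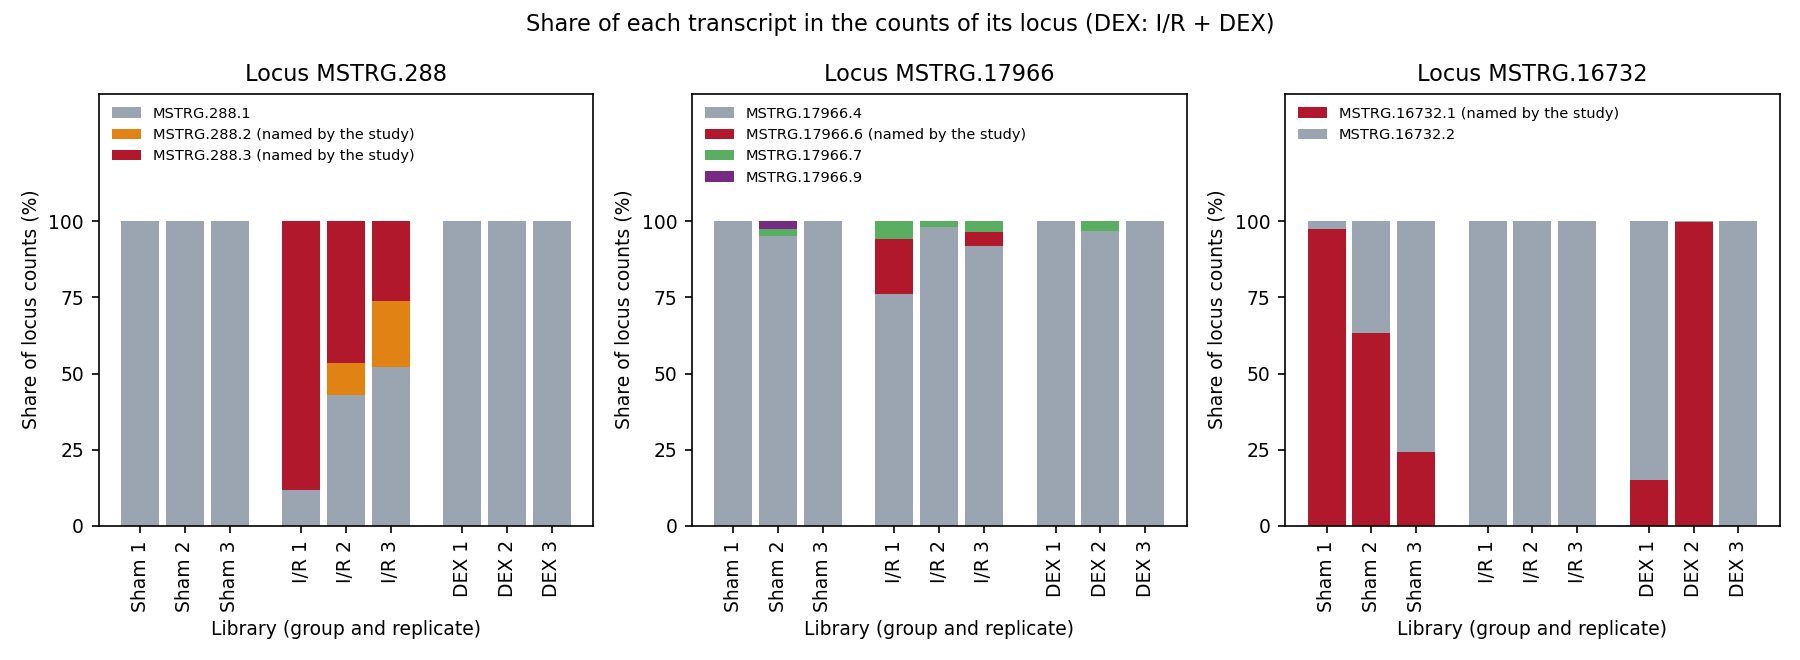
Share of the counts of each locus taken by each of its transcripts, in percent, as stacked bars from 0 to 100 for each of the 9 libraries. MSTRG.288.3 takes 88.4, 46.4 and 26.3% in the 3 I/R rats, MSTRG.17966.4 takes at least 76.3% in every library, and MSTRG.16732.1 spans 24.4 to 97.6% within Sham.

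**Figure D3:**
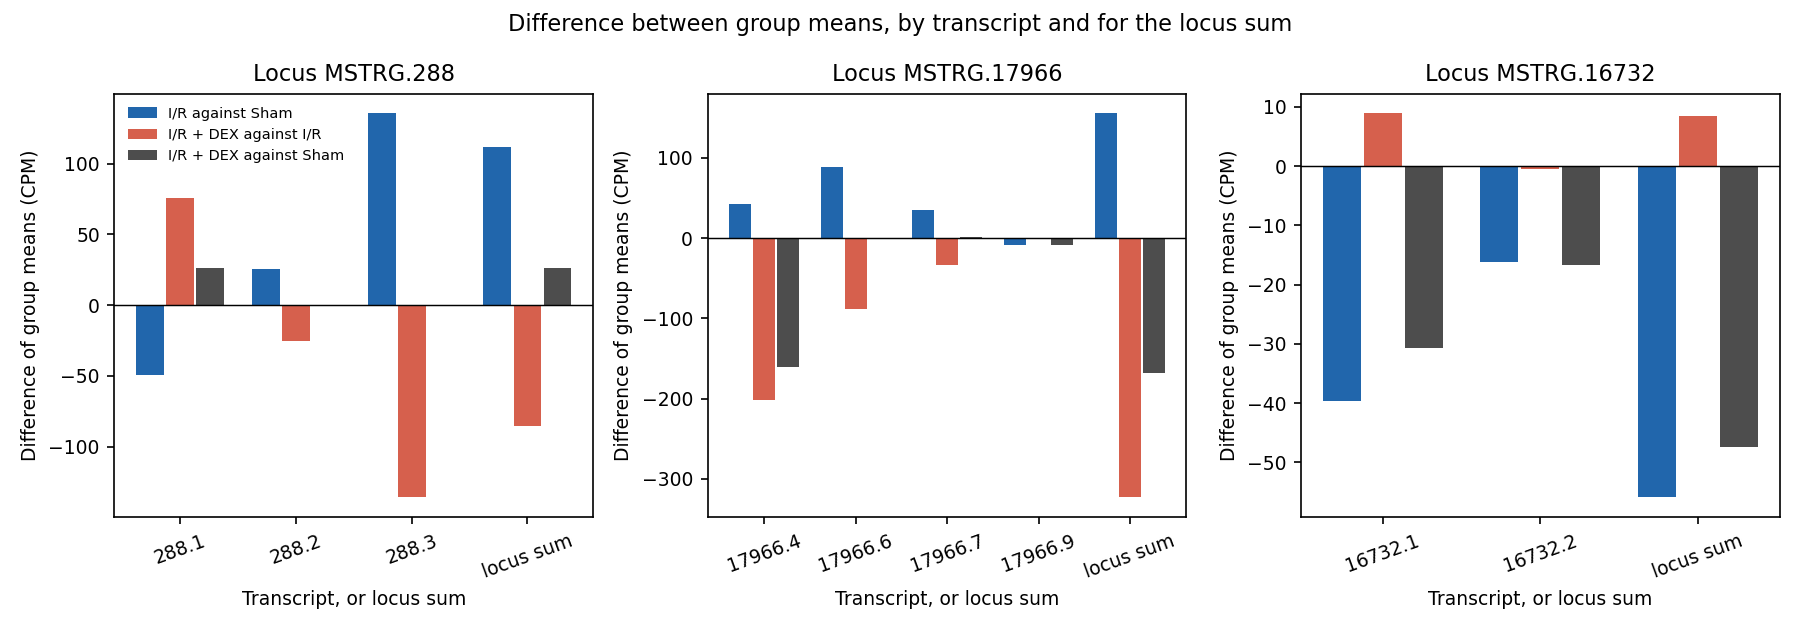
Difference of group means in CPM for each transcript and for the locus sum, as bars from 0, in I/R minus Sham, I/R + DEX minus I/R and I/R + DEX minus Sham; no error bars are drawn, and the SDs stand in the text. At MSTRG.288 the bar of MSTRG.288.1 points against the bar of the sum in the first comparison (-49.7 against 112 CPM) and in the second (75.9 against -85.7 CPM).

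The comparison of I/R + DEX with Sham asks whether the unnamed transcripts differed between drug-treated injured cortex and cortex without occlusion, and it was not the contrast on which the loci were picked. It shares its libraries with both contrasts that were, and the reads of a locus are divided between its transcripts. It is therefore not independent of the choice. The named transcripts were chosen for changing in opposite directions in those contrasts, and the change from Sham to I/R + DEX combines both. The choice can thus favour a small difference here, and nothing is read from the number called below. Of the 5 unnamed transcripts, 3 passed the filter on low counts, and MSTRG.17966.7 and MSTRG.17966.9 did not. By edgeR's quasi-likelihood test, with p adjusted after Benjamini-Hochberg over the whole table, 0 of the 3 were called at an adjusted p under 0.05, where 20.4% of the 25283 transcripts tested were. None had an unadjusted p under 0.05, by DESeq2 none did either before or after adjustment, and by limma-voom 1 did before adjustment and none after.

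MSTRG.288.1 had 134 ± 11.8 CPM in Sham and 161 ± 20.4 in I/R + DEX, a log2 fold change of 0.26 (SE 0.14) with an adjusted p of 0.231. MSTRG.17966.4 had 1017 ± 39.3 CPM in Sham and 857 ± 92.5 in I/R + DEX, a log2 fold change of -0.24 (SE 0.16) with an adjusted p of 0.304. All 3 I/R + DEX libraries of MSTRG.17966.4, at 772, 956 and 844 CPM, lay below the Sham libraries, at 986, 1061 and 1004, a separation with the first named group lower that 23.8% of the transcripts tested show. MSTRG.16732.2 had a log2 fold change of -1.59 (SE 1.65) with an adjusted p of 0.521, and an SE of this size leaves changes of several fold in either direction undetected at this depth and number of rats. Over all alternatives the adjusted p of MSTRG.288.1 ran from 0.0629 to 0.682, that of MSTRG.17966.4 from 0.179 to 0.523 and that of MSTRG.16732.2 from 0.22 to 0.885. A p that misses the threshold does not show that the groups were alike.

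Counts that are 0 in one rat and high in another of the same group were more frequent at predicted loci with more than 1 transcript than at those with 1, though most transcripts did not show them. Among transcripts with at least 100 counts in some library, 303 of 922 at the 373 loci with more than 1 transcript (32.9%) were at 0 in one library and at 100 or more in another of the same group. At the 2035 loci with 1 transcript this held for 12 of 1570 (0.764%). The 9 transcripts were of the first kind, and 5 of them showed it, MSTRG.288.2 and MSTRG.17966.6 in I/R, MSTRG.17966.7 in Sham and I/R + DEX, MSTRG.17966.9 in Sham and MSTRG.16732.1 in I/R + DEX. MSTRG.288.3, MSTRG.288.1, MSTRG.17966.4 and MSTRG.16732.2 did not.

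Having 1 transcript that is counted in every library beside others that are not, as at all 3 loci, was also common. At the loci with more than 1 transcript, 186 of 373 (49.9%) had exactly 1 such transcript and 38 (10.2%) had none, while the sum was counted in every library at 364 (97.6%). The leading transcript differed between rats of one group at 208 loci (55.8%), as it did at MSTRG.288 and MSTRG.16732 and not at MSTRG.17966. No library was found to be deposited more than once within its group. The pairs within a group had a chi-square per degree of freedom of 25.8 to 327 over the whole table. Any pair of separate rats would be above sampling noise at this depth. Pairs from different groups were not compared in this way.

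The spread between rats was smaller for locus sums than for their transcripts. The coefficient of variation (CV, SD over mean, averaged over the groups with any count) had a median of 53.2% over 940 transcripts of loci with more than 1 transcript and of 24.6% over the sums of 367 loci. It was above that of its own locus sum for 819 of the 940 (87.1%). At MSTRG.288 the CV was 26.7% for MSTRG.288.1, 105% for MSTRG.288.2 and 68.8% for MSTRG.288.3, against 11.1% for the sum. At MSTRG.17966 it was 10.4% for MSTRG.17966.4 and from 131 to 173% for the other 3, against 8.12% for the sum, where the value of MSTRG.17966.6 includes I/R + DEX with 11 counts in 1 library, and at MSTRG.16732 it was 101% for both transcripts against 47.5%. All 9 transcripts thus had a larger CV than their locus, but transcripts and sums were not averaged alike. MSTRG.288.2, MSTRG.288.3 and MSTRG.17966.9 had counts in 1 group, MSTRG.17966.6 and MSTRG.16732.1 in 2, and each sum in 3. A group with counts in 1 of its 3 libraries has a CV of 173% whatever the count. This held for MSTRG.17966.9 in Sham, MSTRG.17966.6 in I/R + DEX and MSTRG.17966.7 in Sham and I/R + DEX. It also enters the values of the 940. The CVs are also not independent, since a sum contains its transcripts.

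**Figure D4:**
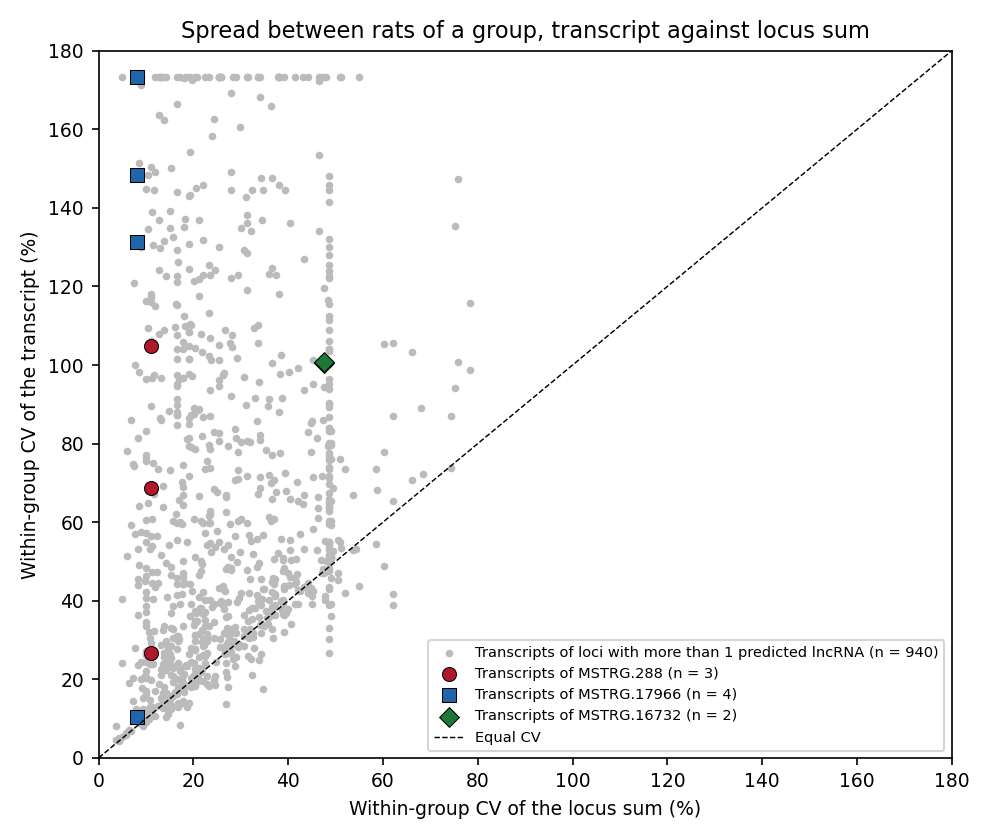
CV between rats of a transcript against the CV of the sum of its locus, both in percent, for 940 predicted lncRNA transcripts of loci with more than 1 transcript, with the 9 transcripts of the 3 loci marked and a line where both are equal. The 9 marked points lie above the line, and the 2 of MSTRG.16732 nearly coincide, at 101% against 47.5%.

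The locus sums of MSTRG.288, MSTRG.17966 and MSTRG.16732 were set beside 2300 predicted lncRNA loci, and the 2 most alike were taken by the root mean square (RMS) difference of centred log2(CPM + 0.5) over the 9 libraries. These are descriptions of pattern, and the loci were compared within the same libraries. For MSTRG.288 they were MSTRG.290, at an RMS difference of 0.0895 on the log2 scale, and MSTRG.287, at 0.109, where the median over all loci was 0.706. MSTRG.290 had 40.6 ± 1.79 CPM (SD, n = 3) in Sham, 71.3 ± 9.31 in the I/R group and 48.0 ± 8.93 in I/R + DEX. MSTRG.287 had 21.0 ± 3.12, 33.4 ± 5.26 and 23.2 ± 4.33 CPM. Both were highest in I/R, with a mean in I/R + DEX between those of the other groups.

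The numbers of MSTRG.287 and MSTRG.290 are close to that of MSTRG.288, which was looked at after the values were seen. Of the other loci within 5 numbers, MSTRG.289 had an RMS difference of 0.271, at rank 67 of 2300, and MSTRG.292 one of 0.50, at rank 643. Their genome positions were not analysed here. Within 5 numbers of MSTRG.17966 the compared locus MSTRG.17971 was at rank 1531, and within 5 numbers of MSTRG.16732 no other locus was compared.

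For MSTRG.17966 the most alike were MSTRG.2480, at an RMS difference of 0.0879, and MSTRG.18265, at 0.10, against a median of 0.583. MSTRG.2480 had 57.3 CPM in Sham, 66.8 in the I/R group and 50.4 in I/R + DEX. For MSTRG.16732 they were MSTRG.15134, at 0.185, and MSTRG.14315, at 0.255, against a median of 1.31. MSTRG.15134 had 148 CPM in Sham, 20.1 in the I/R group and 45.5 in I/R + DEX, and MSTRG.14315 had 501, 66.9 and 95.6, both highest in Sham and lowest in I/R, the order that MSTRG.16732 also had. The likeness was closest for the loci with the smallest range over the groups and widest for MSTRG.16732, whose values in I/R rested on 136 to 516 counts.

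**Figure D5:**
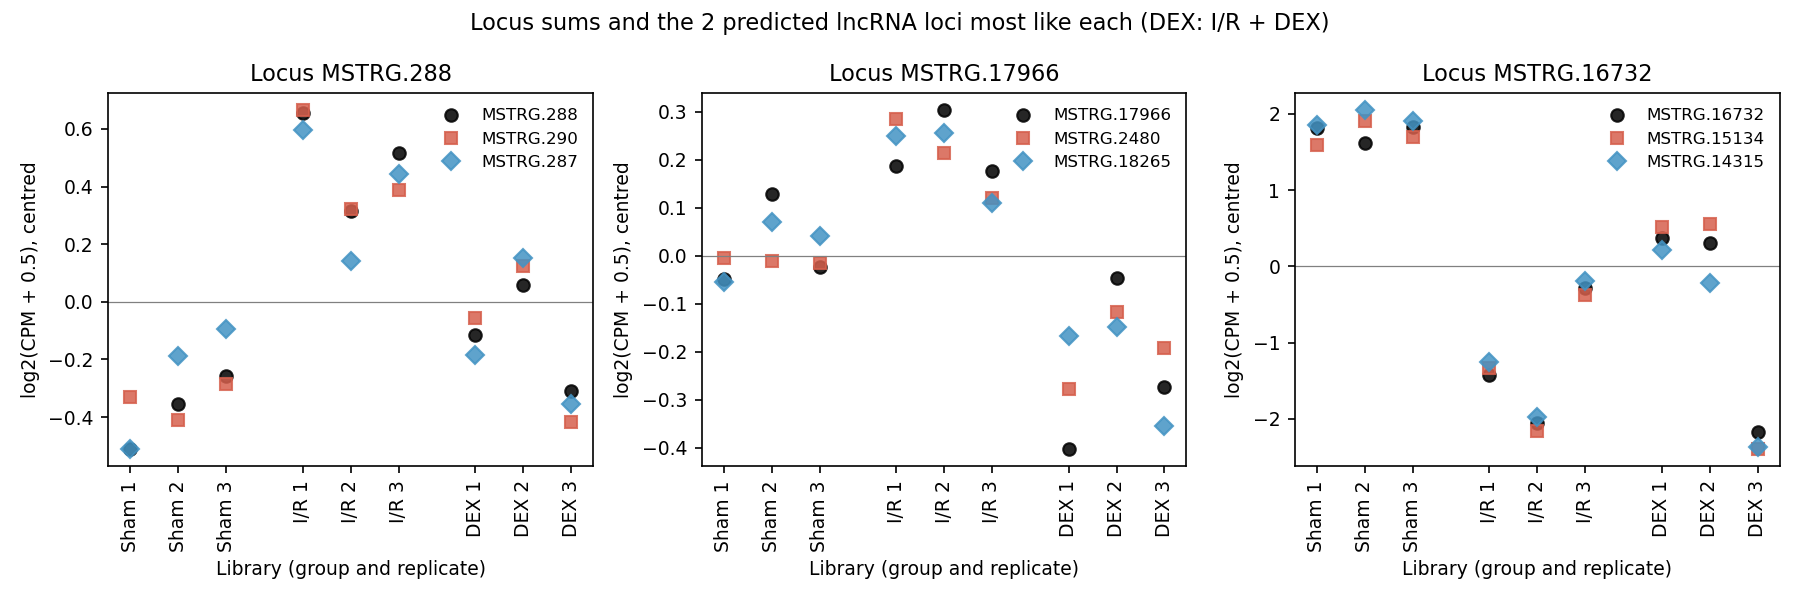
Centred log2(CPM + 0.5) of the sums of the 3 loci and of the 2 most alike loci for each, over the 9 libraries ordered by group, with 0 as the mean of a locus over the libraries. The RMS difference from the locus is 0.0895 for MSTRG.290, 0.0879 for MSTRG.2480 and 0.185 for MSTRG.15134.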

How the data were processed

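Total RNA of 9 cortex samples was sequenced, and groups were taken from the letters of the sample labels. The authors deposited raw whole-number counts per transcript and library. Their methods give Trimmomatic, a mouse genome build and CLC Genomics Workbench, whereas the submitters' processing notes name STAR 2.5.3a, StringTie 1.3.1 and rn6, and which made the table was not resolved. No column of per-sample values was left out. The members and lists were chosen with earlier results of these data known. The transcripts named are all members, plus for each locus the 2 most alike predicted lncRNA loci.

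Transcripts were kept by filterByExpr (a count of 10 in enough libraries, total of at least 15), which left 6, 6 and 4 of the 9 in I/R against Sham, I/R + DEX against I/R and I/R + DEX against Sham. Each comparison was fitted to its 6 libraries with TMM scaling and edgeR's quasi-likelihood test (R 4.3.3, edgeR 4.0.16) over the whole table. Locus sums were fitted in a table in which the counts of each predicted locus were summed, covering predicted lncRNA only, and each annotated transcript kept its own row and counts as a locus in the shares of loci tested. Each SE is the log2 fold change over the root of its F statistic. Shares carry 95% Wilson intervals, and a share at 0 the limit set by 3 counts. The CV used transcripts and locus sums with a mean of at least 1 CPM over the 9 libraries, leaving out groups at 0 in every library, and each SD is over 3 rats. Alternatives were other scalings, filters, DESeq2 1.42.0, limma-voom (limma 3.58.1), all 9 libraries in one fit, a replicate block, and leaving out each library. The scripts were tested on simulated data.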

Additional observations from a re-analysis of the deposited data

How the results depend on the processing

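None of MSTRG.288.1, MSTRG.17966.4 and MSTRG.16732.2 was called in I/R + DEX against Sham under any alternative run, and no log2 fold change of a locus sum, nor of these transcripts in that comparison, changed sign. The division of the CPM differences between transcripts, recomputed without each rat after seeing the data, did change, as given beside them. The number of transcripts called over the whole table moved with the tool, from 5166 by edgeR to 8182 by DESeq2 and 8290 by limma-voom, and to 1818 with the replicate block. With 1 rat left out it ran from 783 to 5985, at 927, 783 and 889 without Sham replicates 1, 2 and 3 and 2299 without I/R + DEX replicate 2. The log2 fold change of the sum of MSTRG.16732 in I/R against Sham ran from -3.58, without I/R replicate 3, to -2.57. Transcripts at 0 in one library and counted in another of the same group numbered 486 of 1191 at a minimum of 10 counts and 150 of 512 at 500, for loci with more than 1 transcript, and 75 of 1977 and 3 of 961 for loci with 1. These last numbers depend on the minimum by definition, since it decides which transcripts are considered. As percentages they were 40.8% and 29.3% for loci with more than 1 transcript, and 3.79% and 0.312% for loci with 1. The cause of the other moves was not tested. The log2 fold change of MSTRG.16732.2 in I/R + DEX against Sham moved by more than 1.5 times, to -4.66 by limma-voom, -3.20 with the block, -3.70 without I/R + DEX replicate 1 and -0.50 without Sham replicate 3. At a minimum of 10 counts in every library this transcript was removed and has no value.

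Same-numbered rats of different groups did not deviate together (Pearson r across transcripts, which are not independent replicates, of -0.049 to -0.002 for I/R and Sham, -0.272 to -0.011 for I/R + DEX and I/R, 0.039 to 0.068 for I/R + DEX and Sham). In the last pair of groups every I/R + DEX sample was closest to the Sham sample of its own number, a hint from the data and not the design. The reverse, from Sham to I/R + DEX, was not looked at. With the block the adjusted p of the 3 transcripts was 0.333, 0.418 and 0.497. Over all main results, 92 values under the alternatives that keep all rats were classed as unchanged and 7 as moved. Under those that leave 1 out, 106 were classed as unchanged and 5 as moved. The values that moved are given above. The shares of the named transcripts were all classed as unchanged, although some differed widely with 1 rat left out. That of MSTRG.16732.1 in I/R + DEX was 38.2% over all rats and 7.54% without I/R + DEX replicate 2. That of MSTRG.17966.6 in I/R was 7.59% over all rats and 2.37% without I/R replicate 1. The tally therefore does not show that the shares were stable. A log2 fold change was classed as unchanged if it moved by less than the spread between replicates. The p-values measure the spread between 3 rats a group, and the division of reads between transcripts of a locus limits every value of a single transcript.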
